A study of Mus musculus with 12 samples.

Results

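Livers in which the AP-1 subunit Fra-2 had been switched on were set directly against livers in which Fra-1 had been switched on. The comparison takes the 3 Fra2hep mutant libraries and the 3 Fra1hep mutant libraries, 6 of the 12 libraries of the series, over every gene that could be tested. It asks in which transcripts these related proteins part company in the same tissue. The other 6 libraries, 3 littermate controls from each strain, served to show whether a gene already differed between the strains in mice that were not mutants.

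All mice were adult C57BL/6 males. Mutants and controls alike came off doxycycline at weaning, at 3 weeks of age, and in the mutants this starts expression of the transgene. Controls were littermates and shared the cage and the treatment. Titles and design text give 2 months of induction for every liver. In the treatment field, however, the 3 Fra2 mutants carry 9 months, and the Fra1 mutants and both control groups 2 months. If that label were right, the time on the transgene and the group could not be told apart in any value below. No source used here states which promoter drives the transgenes or which alleles the controls carry.

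AP-1 is a family of transcription factor dimers. Fos-type proteins, among them Fra-1 (gene Fosl1) and Fra-2 (gene Fosl2), pair with Jun-type proteins and bind the AP-1 site, the sequence TGANTCA. Fra-1 and Fra-2 lack the strong activation domain of c-Fos. In liver, AP-1 proteins are known for roles in lipid metabolism, inflammation, scarring and tumour growth.

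The mutant libraries had 16873180 to 19041286 counts each. Of 55421 genes in the table, 14076 had enough counts to be tested. Values below are CPM, counts scaled to a common library size, and can be compared within a gene but not between genes. Differences are log2 values, Fra2 minus Fra1, with their standard error (SE). Hepatocyte identity genes, such as albumin (Alb) and the nuclear receptor Hnf4a, had a median difference of -0.04. Of 23 tested, 0 had an unadjusted p under 0.05. Albumin varied between livers, with 5.61, 8.32 and 3.69% of counts in the Fra1 mutants and 3.54, 5.37 and 4.44% in the Fra2 mutants. Single libraries stood apart from their groups on a multidimensional scaling plot. On its first axis Fra2 mutant 2 lay at 0.89, against 0.15 and 0.31 for the other Fra2 mutants. The Fra1 mutants lay there at 1.13 to 1.90 and the controls at -1.19 to -0.71. Fra1 mutant 2 lay at -1.49 on the second axis. The other Fra1 mutants lay there at -0.02 and 0.16 and the Fra2 mutants at 0.84 to 0.98. In bulk tissue, fewer cells of a type and less RNA per cell cannot be told apart.

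By edgeR's test, Fra2 and Fra1 mutants differed in few single genes, and the number depended on the method. Fosl2, the insulin-induced gene Insig2, the fatty acid hydroxylase Cyp4a12b and the sialic acid hydroxylase Cmah were higher in Fra2 mutants. Fosl1, the tropomyosin Tpm1 and the membrane skeleton protein Epb41l1 were lower. These 4 higher (0.0284%) and 3 lower genes (0.0213%), together 0.0497% of those tested, passed edgeR's quasi-likelihood test at an adjusted p under 0.05, from which all adjusted p values below come. Without a scaling factor the split was 4 higher and 7 lower. DESeq2 called 363 genes, 182 higher and 181 lower, and edgeR with no filter called 37, 15 higher and 22 lower. At an unadjusted p under 0.05 there were 1730 genes (12.3%), with 804 higher (5.71%) and 926 lower (6.58%) in Fra2 mutants. The median difference over all genes was -0.02. The 7 called genes lie on 7 different chromosomes.

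The transgenes were compared first, since they check the labels. Fosl2 (chr5:32135801-32157842, GRCm38) stood at 398, 421 and 421 CPM in the Fra2 mutants and at 7.49, 11.4 and 10.0 CPM in the Fra1 mutants. The groups were far apart, with a difference of 5.42 ± 0.48 (SE, n = 3 and 3; adjusted p = 0.00256). Fosl1 (chr19:5447547-5455946) stood at 9.41, 10.2 and 12.8 CPM in the Fra1 mutants and at 0.292, 0.109 and 0.0519 CPM in the Fra2 mutants, where these values rest on 5, 2 and 1 counts. Its difference was -6.13 ± 0.70 (SE; adjusted p = 0.00627). Each Fra gene was thus high in the group named for it. For the other Fra gene no change against controls passed the test: Fosl2 in the Fra1 mutants differed from their controls by 0.08 ± 0.42 and Fosl1 in the Fra2 mutants by -0.67 ± 0.89. Transcripts of the transgene and of the mouse's own gene are counted together. Ccdc85b lies on the strand opposite Fosl1, and how the counting treated strand is unknown here.

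The Jun partners of the Fra proteins gave no called gene. Jun, the classical partner, ranged from 26.7 to 95.9 CPM in the Fra1 mutants and from 11.6 to 37.6 CPM in the Fra2 mutants, and the ranges overlapped (-1.41 ± 1.33, SE; adjusted p = 0.721). Junb was at 24.1 to 38.2 against 18.0 to 22.3 CPM and Jund at 70.6 to 76.8 against 56.4 to 71.0 CPM, with differences of -0.59 ± 0.32 and -0.25 ± 0.15. Over all genes 5.71% were higher and 6.58% lower at an unadjusted p under 0.05. Of 16 other genes for related leucine zipper proteins, with a median difference of 0.10, 3 were higher and 1 was lower at it. The 3 higher ones are not reported here. The lower one was Mafk, a small Maf protein, at 53.4, 47.3 and 45.8 CPM in the Fra1 mutants and 27.8, 41.5 and 38.3 CPM in the Fra2 mutants.

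**Figure D1:**
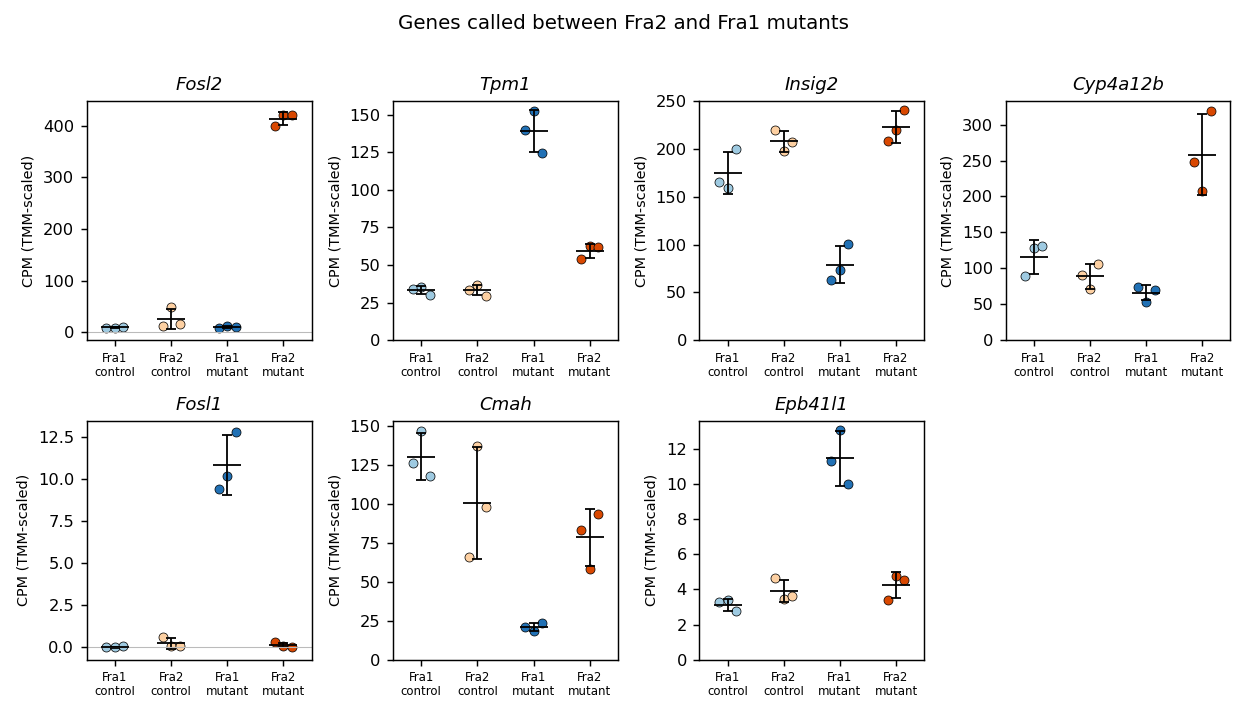
The 7 genes called between Fra2 and Fra1 mutants, one panel each. Points are single libraries in CPM, the wide bar is the group mean and the error bar its SD (n = 3). Insig2, Cmah and Epb41l1 of the Fra2 mutants sit near the controls, Tpm1 is above the controls in both mutant groups, and Cyp4a12b of the Fra2 mutants sits above all other libraries.

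The 5 called genes other than the Fra genes fell into 3 patterns when each mutant group was set beside its own controls. These comparisons reuse the mutant libraries, so the values are given side by side and are not separate evidence. Over all genes, 3.84% passed for Fra1 and 1.07% for Fra2 mutants. In the first pattern, Fra1 mutants left the control level and Fra2 mutants did not pass the test. Insig2, which holds back the processing of the sterol-sensing SREBP proteins (chr1:121304353-121332589), was at 63.1, 73.9 and 100.3 CPM in the Fra1 mutants and at 208, 220 and 241 CPM in the Fra2 mutants. All Fra1 mutants were low, below every control (160 to 219 CPM), and the Fra2 mutants lay at or just above the upper controls. The difference between the mutants was 1.5 ± 0.16 (adjusted p = 0.00598; 0.0771, and so not called, in a fit of the 6 mutant libraries alone), against -1.15 ± 0.16 for Fra1 and 0.10 ± 0.16 for Fra2 mutants beside their controls.

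Cmah, which makes the sialic acid form that most mammals but not humans carry (chr13:24327404-24477377), was at 21.1, 18.3 and 23.7 CPM in the Fra1 mutants and at 82.9, 58.4 and 93.7 CPM in the Fra2 mutants. Controls ran from 118 to 147 CPM in the Fra1 strain and from 65.6 to 137 CPM in the Fra2 strain, so the Fra2 mutants overlapped their controls and the Fra1 mutants did not. The difference between the mutants was 1.90 ± 0.25 (adjusted p = 0.0253). Its call was lost in 7 of 12 fits that left out a library, with adjusted p up to 0.139 without Fra2 mutant 3.

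Epb41l1, a protein that ties the membrane to spectrin and actin (chr2:156420909-156543214), showed the same pattern in the other direction. It was at 11.3, 13.1 and 10.0 CPM in the Fra1 mutants and at 3.39, 4.74 and 4.57 CPM in the Fra2 mutants, while the 6 controls ran from 2.74 to 4.64 CPM. Only the Fra1 mutants stood clear of the controls among the 4 groups. The difference was -1.44 ± 0.20 (adjusted p = 0.0270), and this call too was lost in 7 of 12 fits without a library, with adjusted p up to 0.160 without Fra2 mutant 3, and in a fit of the 6 mutant libraries alone (adjusted p = 0.106).

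In the second pattern, both mutants moved the same way and one moved further. Tpm1, a tropomyosin that coats actin filaments (chr9:67022590-67049406), was at 140, 152 and 125 CPM in the Fra1 mutants and at 53.7, 62.6 and 61.7 CPM in the Fra2 mutants. The 6 controls ran from 29.6 to 36.7 CPM, so both mutant groups were above all controls and did not overlap each other. Tpm1 rose by 2.07 ± 0.12 in Fra1 and by 0.84 ± 0.12 in Fra2 mutants against their controls. The difference between the mutants was -1.23 ± 0.12 (adjusted p = 0.00256), and it was called in all 12 fits that left out a library.

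The third pattern was that of Cyp4a12b, a liver fatty acid hydroxylase known to be higher in males (chr4:115411624-115439034). It was at 74.3, 53.7 and 70.2 CPM in the Fra1 mutants and at 248, 208 and 319 CPM in the Fra2 mutants, with controls between 70.9 and 131 CPM. The Fra2 mutants were above all other libraries, and the Fra1 mutants were near or below the lowest control. Cyp4a12b rose in Fra2 mutants against their controls (1.54 ± 0.22), while the value for Fra1 mutants was -0.81 ± 0.21 and did not pass (adjusted p = 0.0643). The difference between the mutants was 1.97 ± 0.22 (adjusted p = 0.00598), also called in all 12 such fits. The near copy Cyp4a12a was at 313, 109 and 393 against 500, 448 and 546 CPM (0.87 ± 0.34; adjusted p = 0.348), and how reads were split between the copies is not given.

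The AP-1 site, which both Fra proteins bind, was looked for in promoter sequence. Control of these genes through the site was not tested. RefSeq starts on GRCm38.p6 were searched over the 250 bases before the start for TGANTCA, which reads the same on both strands apart from its middle base. It was found at 6.75% of all 32851 starts, and at 4.80% of the 13648 starts of tested genes. Of the 7 called genes 5 were matched, with 10 starts, and 1 start held the site: an internal start of Epb41l1. Its window, chr2:156475284-156475533 on the plus strand, lies inside the gene as GENCODE places it. That window is shown whole because it holds 2 AP-1 sites, 72 and 58 bases before the start. Capitals mark the AP-1 sites, read 5′ to 3′.
Epb41l1: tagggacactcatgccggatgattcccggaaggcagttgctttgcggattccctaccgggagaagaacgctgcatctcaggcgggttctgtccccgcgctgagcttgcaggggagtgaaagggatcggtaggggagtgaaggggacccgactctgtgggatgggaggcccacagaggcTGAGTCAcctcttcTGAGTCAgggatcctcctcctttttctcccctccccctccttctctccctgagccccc

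Of the 23 genes chosen by a fixed rule for naming, described below, 16 were matched with 23 starts, and 3 starts held the site. Besides Epb41l1 these were starts of Col6a1, a collagen, and Pir, a nuclear iron protein. Both had lower CPM in the Fra2 than in the Fra1 mutants without passing the test. Anxa2, a membrane-binding annexin, is added as a member of the cytoskeleton list described below and was chosen after its values were seen. The window of Tpm1, the called member of that list, held 0 AP-1 sites. To compare the sites, 30 bases around each are given on the gene's strand, from chr10:76726116-76726145 (minus), chrX:164269208-164269237 (plus) and chr9:69453577-69453606 (plus). Capitals mark the AP-1 site, which lies 90, 212 and 95 bases before the RefSeq start. For Col6a1 the bases shown lie inside the gene as GENCODE places it (chr10:76708792-76726168, minus), after its GENCODE start.
Col6a1: tgctgatgctgTGACTCActcagctttgag
Pir: catagagaggcTGAGTCActcccccaaacg
Anxa2: tccaagttggaTGAGTCAcccagcagggtg

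The 4 genes are printed because their windows hold a match, so carrying the site follows from the choice. Its letters are the same in all 4 on double-stranded DNA: TGACTCA of Col6a1 is TGAGTCA read on the other strand. The share of the cytoskeleton list with the site was not counted. A match is a string of letters and not a measured binding site, and a start without a match says only that these letters are missing from the window.

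The controls showed how far the strains differed without a mutant. Between Fra2 and Fra1 controls 0 genes passed edgeR's test (0.00%), 753 had an unadjusted p under 0.05 (5.35%), DESeq2 called 17 and limma-voom 0. Of the 1730 genes at the unadjusted threshold between the mutants, 121 were at it the same way between the controls and 51 the opposite way. Of the 7 called genes, Fosl2 had such a difference the same way: its Fra2 controls stood at 12.2, 48.1 and 16.03 CPM, above 8.69, 8.65 and 10.1 CPM in the Fra1 controls (1.47 ± 0.41; unadjusted p = 0.00452, adjusted p = 0.866). Fosl1 had one the opposite way, on 11, 1 and 1 counts in the Fra2 and 0, 0 and 1 in the Fra1 controls (unadjusted p = 0.0256). For Tpm1, Insig2, Cyp4a12b, Cmah and Epb41l1 the control difference was between -0.38 and 0.32, with unadjusted p from 0.0978 to 0.981.

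Some differences between the mutants were of like size between the controls, or smaller but the same way. The following genes were chosen after their values were seen, and none passed the test between the mutants. Stk10, a kinase of lymphoid and other cells, was at 5.85, 6.27 and 7.87 CPM in Fra1 and 16.3, 23.8 and 22.1 CPM in Fra2 mutants, and at 1.24, 1.87 and 3.01 against 5.80, 3.41 and 6.48 CPM in the controls. Its difference was 1.63 ± 0.30 between mutants and 1.34 ± 0.32 between controls. The uracil-removing DNA repair enzyme Ung had -1.08 ± 0.29 and -1.11 ± 0.29, the actin-nucleating formin Fmn1 1.09 ± 0.22 and 0.87 ± 0.21, and Samd10 -1.07 ± 0.28 and -1.07 ± 0.29. In these 4 genes the difference of the mutants less that of the controls was 0.29 ± 0.44, 0.03 ± 0.40, 0.21 ± 0.30 and -0.00, in that order. The last is given without an SE, which is unreliable for a difference so near 0. The nuclear lamina gene Lmna was at 106, 162 and 116 CPM in Fra1 and 56.2, 62.5 and 72.4 CPM in Fra2 mutants, a difference of -1.01 ± 0.18 (adjusted p = 0.0722), with -0.56 ± 0.18 in the controls.

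The major urinary protein gene Mup7 did not pass the test between mutants (adjusted p = 0.309) or between controls (adjusted p = 0.866). The Fra1 mutants gave only 1, 1 and 3 counts of it, the Fra2 mutants 3018, 358 and 217. Among the Fra2 controls replicate 1 had 49149 counts, against 21 and 16 in replicates 2 and 3, so the control difference of this gene rests on a single liver. Mup genes are near copies of each other, which makes their counts uncertain.

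**Figure D2:**
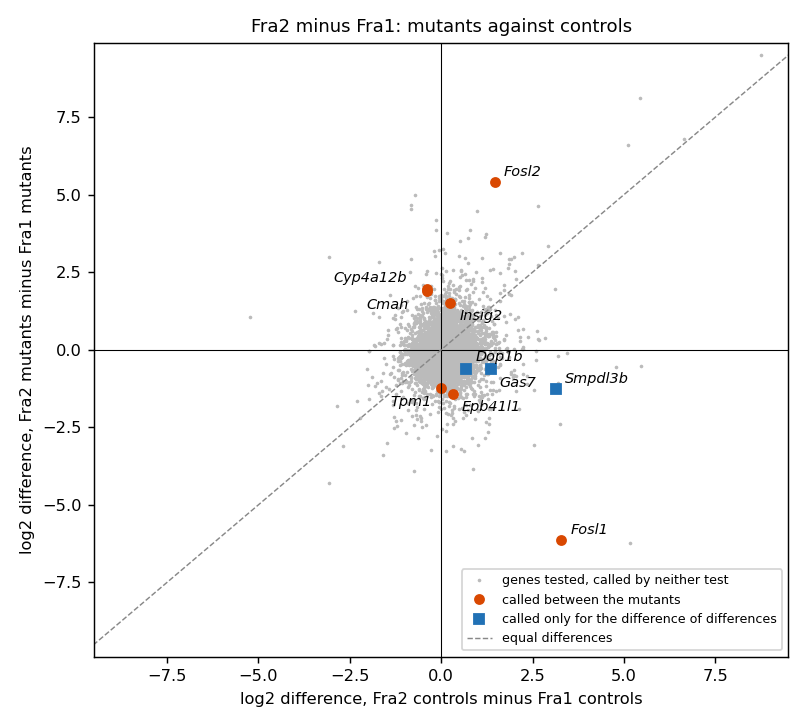
Each point is a gene: the horizontal axis is its log2 difference between Fra2 and Fra1 controls, the vertical axis that between Fra2 and Fra1 mutants, and the dashed line marks equal differences. Tpm1, Insig2, Cyp4a12b, Cmah and Epb41l1 lie near 0 horizontally; the place of Fosl1 along that axis rests on 1 count in the Fra1 controls.

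A test of the difference of differences, mutants less controls, asked in which genes the Fra2 minus Fra1 difference was unlike in mutants and controls. A call can come from the controls as much as from the mutants. It called 5 genes (0.0355%), 1 higher (0.00710%) and 4 lower (0.0284%): Cyp4a12b (2.35 ± 0.31; adjusted p = 0.0342), Tpm1 (-1.23 ± 0.17; 0.0394), Gas7, Smpdl3b and Dop1b. At an unadjusted p under 0.05 there were 889 genes (6.32%). For the last 3 genes the mutants alone did not pass. Gas7, an actin-binding adaptor, stood at 117, 117 and 143 CPM in Fra1 and 76.9, 80.4 and 86.8 CPM in Fra2 mutants, but at 4.38, 5.16 and 5.06 in Fra1 and 11.4, 16.3 and 9.66 CPM in Fra2 controls. The order of the strains was thus reversed between controls and mutants, with no overlap in either.

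Smpdl3b, a membrane enzyme of sphingolipid metabolism, had the same reversal. It was at 49.8, 32.4 and 31.5 CPM in Fra1 and 11.6, 22.0 and 14.1 CPM in Fra2 mutants, and at 0.0983 to 0.161 and 0.864 to 1.38 CPM in the respective controls, where the Fra1 values rest on 2, 2 and 3 counts. The differences were -1.25 ± 0.25 between mutants and 3.14 ± 0.49 between controls, and -4.40 ± 0.54 for the one less the other (adjusted p = 0.0323). Dop1b, a protein of vesicle traffic, was at 76.2, 80.1 and 84.1 against 56.2, 53.7 and 47.7 CPM in the mutants and at 25.3 to 28.1 against 34.6 to 49.7 CPM in the controls (-1.29 ± 0.18; adjusted p = 0.0431). Gas7 had -1.98 ± 0.24 (adjusted p = 0.0323) and overlaps Glp2r on the other strand. With limma-voom Smpdl3b (adjusted p = 0.287) and Dop1b (0.0584) were not called. All 5 calls depended on the libraries used: the count was 0 in 8 of 12 fits that left out 1 library and 13 without Fra2 control 3.

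**Figure D3:**
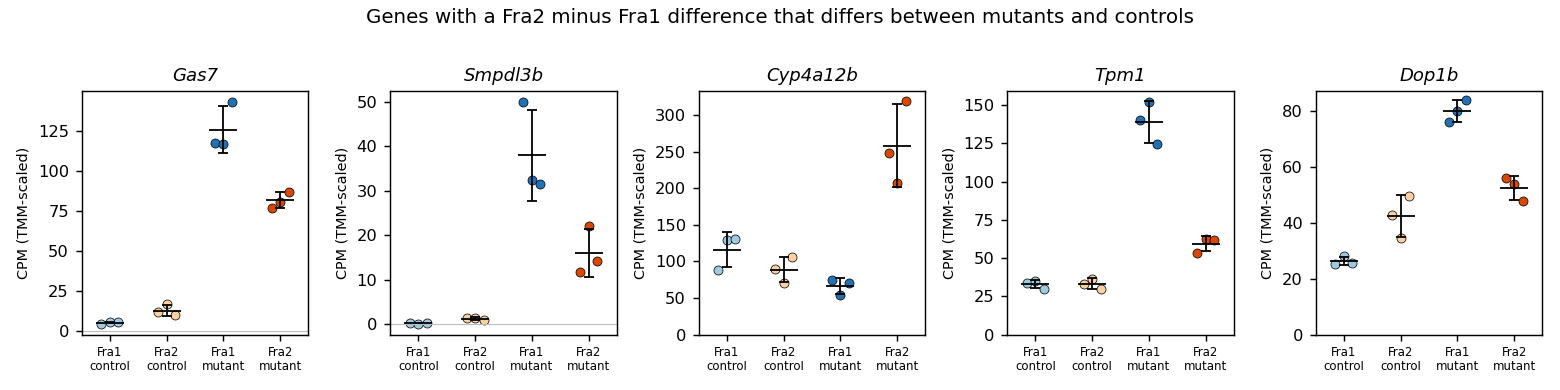
The 5 genes called for the difference of differences, in CPM by library, with group mean and SD (n = 3). Gas7, Smpdl3b and Dop1b are higher in Fra2 than in Fra1 controls and lower in Fra2 than in Fra1 mutants; Tpm1 controls of both strains lie between 29.6 and 36.7 CPM.

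The naming rule also took the coding genes closest to the threshold until each direction had 10. These 13 genes did not pass, with adjusted p from 0.0549 to 0.0722, and in each the 3 Fra2 and 3 Fra1 mutants did not overlap. Such separation was common: 1227 genes (8.72%) lay wholly higher and 1486 (10.6%) wholly lower in Fra2 mutants. On the higher side, the mitochondrial propionate-activating enzyme Acss3 was at 1.42, 0.211 and 1.57 CPM in Fra1 and 11.2, 21.3 and 10.9 CPM in Fra2 mutants, with controls at 12.04 to 38.1 CPM (3.75 ± 0.59). Paqr9, a membrane receptor-like protein, was at 138, 82.9 and 139 against 250, 450 and 508 CPM, with controls at 305 to 470 CPM (1.75 ± 0.28). All Fra1 mutants were below all controls in both genes. Fra2 mutants 1 and 3 for Acss3 and Fra2 mutant 1 for Paqr9 also lay below the lowest control, and neither gene passed the test in Fra2 mutants against their controls.

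Atg16l2, a relative of an autophagy protein, followed them with 7.60, 11.4 and 11.99 against 25.7, 25.1 and 24.9 CPM and controls at 23.6 to 38.6 CPM (1.29 ± 0.19). Olig1, a transcription factor known from glia, had 2.41 ± 0.41 at low levels of 0.316 to 6.48 CPM. The remaining higher genes were 2410131K14Rik (1.59 ± 0.25) and the ubiquitin ligase Ube4b (0.70 ± 0.12). Acss3 overlaps Ppfia2 and Atg16l2 overlaps Fchsd2 on the other strand, which leaves their counts uncertain.

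On the lower side, Hkdc1, a hexokinase relative, was at 13.6, 29.9 and 15.7 CPM in Fra1 and 3.68, 5.84 and 3.22 CPM in Fra2 mutants, above 0.131 to 0.552 CPM in the controls (-2.22 ± 0.35). The synaptotagmin Syt14 was at 3.67, 7.004 and 4.27 against 1.58, 1.31 and 1.04 CPM (-1.93 ± 0.32). Both were called higher in both mutants against their own controls, and stood lower in the Fra2 mutants. Rock2, the kinase that drives actomyosin contraction, was at 38.8, 39.3 and 35.4 against 25.6, 27.3 and 25.0 CPM (-0.55 ± 0.09), with 18.0 to 20.2 and 23.4 to 24.5 CPM in the controls.

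Col6a1, which encodes a chain of type VI collagen, was at 21.8, 21.01 and 22.04 CPM in Fra1 and 6.48, 10.4 and 9.29 CPM in Fra2 mutants, and the controls at 10.4 to 19.3 CPM lay between them (-1.31 ± 0.22). Cavin1, a coat protein of caveolae, had -0.88 ± 0.14 and the cilium channel Pkd2 -0.60 ± 0.10, again with the controls largely between the mutants. Pir differed from these in that its Fra2 mutants, at 5.32, 7.36 and 4.93 CPM, were below Fra1 mutants at 13.1, 20.7 and 11.9 CPM, with controls at 20.02 to 28.5 CPM (-1.38 ± 0.24). Pir was called lower in Fra2 mutants against their controls (-2.03 ± 0.24) and not in Fra1 mutants (-0.64 ± 0.23; adjusted p = 0.171).

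Groups of genes were described by their counts at the unadjusted threshold, beside 5.71% higher and 6.58% lower over all genes, and by their median difference, beside -0.02. Lists of the cytoskeleton and of matrix had negative medians. Of 31 annexin, S100, tropomyosin, tubulin and keratin genes tested, 1 was called (Tpm1, lower), 12 were lower and 0 higher at the unadjusted threshold, and the median was -0.40 (0.00 between the controls). Anxa2 was at 91.6, 115 and 76.4 CPM in Fra1 and 25.1, 37.8 and 13.8 CPM in Fra2 mutants, with controls at 8.42 to 20.8 CPM (-1.88 ± 0.35; adjusted p = 0.0825). The Fra1 mutants were the high group, and Fra2 mutant 3 lay within the controls.

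The keratins of hepatocytes gave smaller differences. Krt18 was at 342, 345 and 333 against 209, 208 and 237 CPM (-0.64 ± 0.16) and its partner Krt8 at 203, 141 and 194 against 122, 110 and 126 CPM (-0.59 ± 0.19). The tropomyosin Tpm4 was at 37.9, 41.8 and 42.6 against 25.2, 24.7 and 16.9 CPM (-0.87 ± 0.27). The Anxa2 partner S100a10 did not part the mutants: it was at 282, 246 and 355 against 257, 268 and 278 CPM (-0.14 ± 0.25, an interval that allows a difference either way).

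Of 36 matrix and fibrosis genes 9 were lower and 1 higher at the unadjusted threshold, with a median of -0.56 (-0.01 between the controls). The small proteoglycan Bgn was at 205, 195 and 186 CPM in Fra1 and 90.2, 124 and 89.4 CPM in Fra2 mutants, with controls at 103 to 170 CPM (-0.95 ± 0.19). Col6a2 was at 16.1, 16.96 and 14.4 against 3.80, 8.78 and 6.28 CPM (-1.33 ± 0.30). The fibril collagens were more scattered: Col1a1 was at 41.7, 28.7 and 21.5 against 4.61, 25.1 and 9.14 CPM, and these groups overlapped (-1.24 ± 0.58). The 1 gene on the higher side was fibronectin, Fn1, at 1403, 1231 and 1343 against 1519, 2004 and 1608 CPM. The median was -0.29 without Fra1 mutant 1 and -0.85 without Fra2 mutant 2.

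Stellate cells, the matrix-making cells of the liver, were measured by 15 markers, of which 7 were lower and 0 higher, with a median of -0.42. Their summed level ran from 578 to 700 CPM in the Fra1 mutants, 444 to 510 in the Fra2 mutants, 393 to 466 in the Fra1 controls and 548 to 576 in the Fra2 controls. The Fra1 mutants were high and the Fra2 mutants low, with the order reversed in the controls, whose median difference was 0.30. Decorin, Dcn, illustrates this: 207, 222 and 191 against 136, 171 and 146 CPM in the mutants, and 102, 127 and 112 against 188, 177 and 167 CPM in the controls. The share of stellate cells in the matrix values was not tested.

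Membrane proteins of the brush border and its proteases had 6 of 15 lower and 0 higher, with a median of -0.28, and of -0.16 without Fra1 mutant 3. The actin bundler Espn was at 4.65, 2.16 and 4.47 against 0.643, 1.36 and 0.727 CPM (-2.04 ± 0.41), and the serine protease Tmprss2 at 38.8, 54.5 and 41.5 against 21.6, 27.8 and 27.2 CPM (-0.81 ± 0.26). Both Tmprss2 groups were above the controls, at 3.00 to 7.59 CPM. Cdh1, the epithelial cadherin, which is listed with the periportal genes, was at 163, 279 and 195 against 82.2, 109 and 104 CPM (-1.11 ± 0.34). Tnfrsf12a, the receptor of the cytokine TWEAK, was at 37.3, 65.7 and 20.3 against 9.64, 13.4 and 13.6 CPM (-1.75 ± 0.38; adjusted p = 0.115), and its groups did not overlap either.

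**Figure D4:**
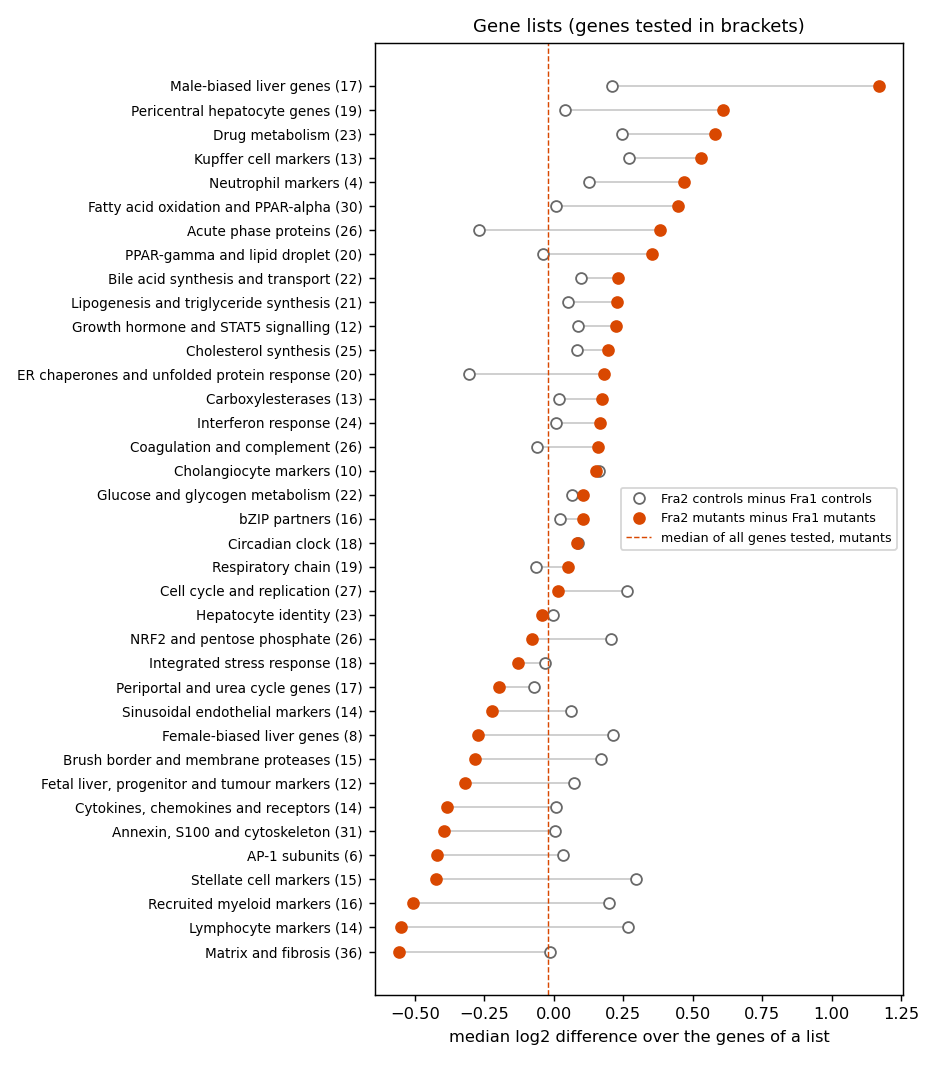
Median log2 difference, Fra2 minus Fra1, over the tested genes of 37 lists: filled points are mutants, open points controls, and the dashed line is the median of all genes between the mutants (-0.02). Male-biased genes (1.17) stand at the upper end and matrix genes (-0.56) at the lower end.

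Lists of hepatocyte metabolism differed in direction. Male-biased, pericentral, fatty acid oxidation and drug metabolism genes had positive medians, whereas of 17 periportal and urea cycle genes 0 were higher and 2 lower, with a median of -0.20 that was 0.01 without Fra1 mutant 2. The male-biased liver genes, which depend on the pulsed growth hormone of males, had 1 called member (Cyp4a12b), 7 of 17 higher and 0 lower at the unadjusted threshold, and a median of 1.17 (0.21 between the controls). The fatty acid elongase Elovl3 was at 1.53, 1.32 and 68.9 CPM in Fra1 and 761, 152 and 667 CPM in Fra2 mutants (4.46 ± 1.41; adjusted p = 0.245). The steroid enzyme Hsd3b5 was at 13.2, 0.0527 and 18.5 against 104, 40.5 and 115 CPM, and the transporter Slco1a1 at 36.6, 2.00 and 56.0 against 158, 140 and 150 CPM. The mutants did not overlap in these 3 genes, and the control spread was wide too, with Slco1a1 from 96.8 to 1311 CPM in the Fra2 controls. Fra1 mutant 2 was the lowest library of the list and Fra2 control 1 the highest; without Fra1 mutant 2 the median was 0.82.

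Of 19 pericentral genes, which mark hepatocytes around the central vein, 10 were higher and 0 lower, with a median of 0.61 (0.04 between the controls). Oat, an ornithine-degrading enzyme, was at 482, 426 and 414 against 2147, 932 and 850 CPM, with controls at 381 to 616 CPM (1.57 ± 0.32; adjusted p = 0.0965). Here the Fra2 mutants were the group above the controls. In glutamine synthetase the Fra1 mutants were the low group: the gene Glul was at 555, 215 and 553 against 917, 691 and 751 CPM, with controls at 666 to 900 CPM (0.83 ± 0.29). The ethanol-oxidising enzyme Cyp2e1 was at 5555, 1499 and 3921 against 8066, 5437 and 6681 CPM, and its groups overlapped. Without Fra1 mutant 2 the median was 0.47.

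Glucose output enzymes were among the wider single differences. The phosphatase that releases glucose, G6pc, was at 255, 136 and 181 CPM in Fra1 and 735, 816 and 660 CPM in Fra2 mutants, with controls at 383 to 1052 CPM (1.95 ± 0.36; adjusted p = 0.0775). Pck1, which feeds carbon into new glucose, was at 456, 1033 and 876 against 3047, 3458 and 2614 CPM, with controls at 1255 to 3580 CPM (1.95 ± 0.39; adjusted p = 0.0965). The list of 22 glucose and glycogen genes as a whole had a median of 0.11, with 2 higher and 3 lower, and of -0.07 without Fra1 mutant 2.

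Of 30 fatty acid oxidation and PPAR-alpha genes 10 were higher and 0 lower, with a median of 0.45 (0.01 between the controls). Each library was also given the median log2 deviation of these genes from their mean over all libraries. There Fra2 mutant 1 lay at -0.28, within the Fra1 mutants at -0.37 to -0.15. Fra2 mutants 2 and 3 lay above them, at 0.24 and 0.22. Leaving out a mutant library moved the list median between 0.33 (without Fra1 mutant 2) and 0.60 (without Fra1 mutant 3). Ppara, the receptor that turns on fat burning in fasting, was at 16.6, 19.4 and 15.03 against 22.5, 61.4 and 39.3 CPM, with controls at 20.6 to 35.8 CPM (1.27 ± 0.29; adjusted p = 0.127). Its target Cyp4a10 was at 11.2, 8.90 and 6.70 against 10.51, 51.5 and 98.4 CPM, overlapping through Fra2 mutant 1. Of 20 lipid droplet and PPAR-gamma genes 5 were higher and 2 lower, with a median of 0.35. Mogat1, which makes diglyceride, was at 0.602, 0.0527 and 0.508 against 2.39, 2.18 and 1.77 CPM (2.43 ± 0.55; adjusted p = 0.127), while Pparg itself was at 2.58 to 6.30 against 3.58 to 5.51 CPM (0.00 ± 0.31).

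Sterol genes were mixed, with 5 of 25 higher and 3 lower and a median of 0.19, which was 0.05 without Fra1 mutant 2. Insig1, the relative of Insig2, was at 433, 324 and 229 against 217, 209 and 175 CPM (-0.72 ± 0.26). Hmgcs1, an enzyme of sterol synthesis, lay the other way at 452, 216 and 305 against 477, 624 and 570 CPM (0.78 ± 0.32). Insig1 thus lay on the Fra1 side and Insig2 on the Fra2 side. Of 22 bile acid genes 6 were higher and 2 lower. The side-chain hydroxylase Cyp27a1 was at 505, 385 and 508 against 717, 649 and 700 CPM (0.56 ± 0.13), and Cyp8b1, which sets the kind of bile acid made, at 55.8, 0.790 and 83.7 against 160, 460 and 463 CPM.

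Acute phase genes encode plasma proteins that liver releases in inflammation. Of 26 tested 12 were higher and 1 lower in Fra2 mutants, with a median of 0.38 and a control median of -0.27; without Fra1 mutant 2 it was 0.61. Haptoglobin, Hp, was at 687, 1031 and 1065 CPM in Fra1 and 3230, 1448 and 2088 CPM in Fra2 mutants, with controls at 2216 to 3438 CPM (1.28 ± 0.28; adjusted p = 0.116). The iron-trapping Lcn2 was at 1.26, 1.37 and 0.305 against 31.4, 5.89 and 5.19 CPM, with controls at 5.42 to 13.6 CPM (3.85 ± 0.79; adjusted p = 0.103). In Hp the Fra1 mutants were below all controls, and so were the Fra2 mutants at 1448 and 2088 CPM. Fra2 mutant 1 lay within the Hp controls. In Lcn2 the Fra1 mutants and the Fra2 mutant at 5.19 CPM were below all controls, and Fra2 mutant 1 was above all controls.

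The orosomucoid Orm2 was at 0.985, 0.948 and 4.37 against 99.1, 18.2 and 30.8 CPM (4.54 ± 1.00; adjusted p = 0.125). Fra2 mutant 1 had the highest value of the 3 Fra2 mutants for Hp, Lcn2, Orm2 and Saa1. Hamp, the iron hormone hepcidin, was the lower gene, at 652, 1293 and 739 against 261, 258 and 182 CPM (-1.94 ± 0.39; adjusted p = 0.0996), and part of that difference stood in the controls (-0.91 ± 0.38). Orm and Saa genes are near copies, which makes their counts uncertain.

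Drug-metabolising genes had 8 of 23 higher and 1 lower, with a median of 0.58 (0.25 between the controls), and of 0.32 without Fra1 mutant 2. The bilirubin-conjugating enzyme Ugt1a1 was at 197, 122 and 172 against 277, 331 and 332 CPM (0.94 ± 0.24). The efflux pump Abcb1a was the lower one, at 8.97, 7.90 and 5.38 against 2.22, 6.38 and 2.44 CPM. Of 13 carboxylesterases 2 were higher and 1 lower, with 8 positive and 5 negative differences. Their median was 0.17, and -0.16 without Fra1 mutant 2. Among the carboxylesterases, Ces1c, a secreted esterase of mouse plasma, was at 2944, 4414 and 1271 CPM in Fra1 and 422, 163 and 308 CPM in Fra2 mutants, with controls at 1001 to 3383 CPM (-3.27 ± 0.56; adjusted p = 0.0722). Its Fra2 mutants were below all other libraries, and Ces1c fell in Fra2 mutants against their controls (-2.98 ± 0.56; adjusted p = 0.0317). Close paralogs make its count uncertain.

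Of 26 genes of the NRF2 antioxidant response and the pentose phosphate path, 6 were lower and 0 higher, with a median of -0.08 (0.21 between the controls), and of -0.19 without Fra2 mutant 2. Pir is one of them. The glutathione transferase Gsta2 was at 40.9, 45.7 and 43.6 against 21.2, 27.8 and 25.4 CPM, with 5.06 to 6.68 and 7.94 to 12.7 CPM in the controls (-0.81 ± 0.17; adjusted p = 0.106). Gsta1, a near copy, was at 2.95, 8.01 and 7.77 against 1.23, 1.36 and 1.51 CPM. The hallmark targets Nqo1 (-0.19), Gclc (-0.08) and Srxn1 (-0.08) lay near 0.

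Immune cell markers moved with these lists in part. Of 13 Kupffer cell markers, those of the resident macrophages, 3 were higher and 2 lower, with a median of 0.53 and 0.27 between the controls. Clec4f, which defines them, was at 89.3, 99.1 and 104 against 159, 116 and 171 CPM (0.61 ± 0.24), and the summed level ran from 610.5 to 823 in Fra1 and 663 to 935 CPM in Fra2 mutants, an overlap. Of 16 markers of recruited myeloid cells 0 were higher and 3 lower, with a median of -0.51 that turned to 0.13 without Fra1 mutant 2; their sums were 404 to 595 and 518 to 552 CPM. Of 14 lymphocyte markers 0 were higher and 2 lower (median -0.55, and -0.14 without Fra1 mutant 2), with sums of 32.4 to 71.6 and 31.5 to 85.3 CPM. Of 12 neutrophil markers 4 could be tested, with 0 at the threshold, 4 of 4 positive and a median of 0.47 (0.13 between the controls; 0.28 without Fra1 mutant 1 and 0.85 without Fra1 mutant 2). Their sums were 4.43 to 9.64 and 7.96 to 12.7 CPM, and the other 8, Ly6g, Mpo and Elane among them, were too low to test. Fra2 mutant 1, the highest Fra2 mutant for Hp, Lcn2, Orm2 and Saa1, was also the highest library of the neutrophil list. The part of these cells in the acute phase, male-biased and matrix values was not tested.

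**Figure D5:**
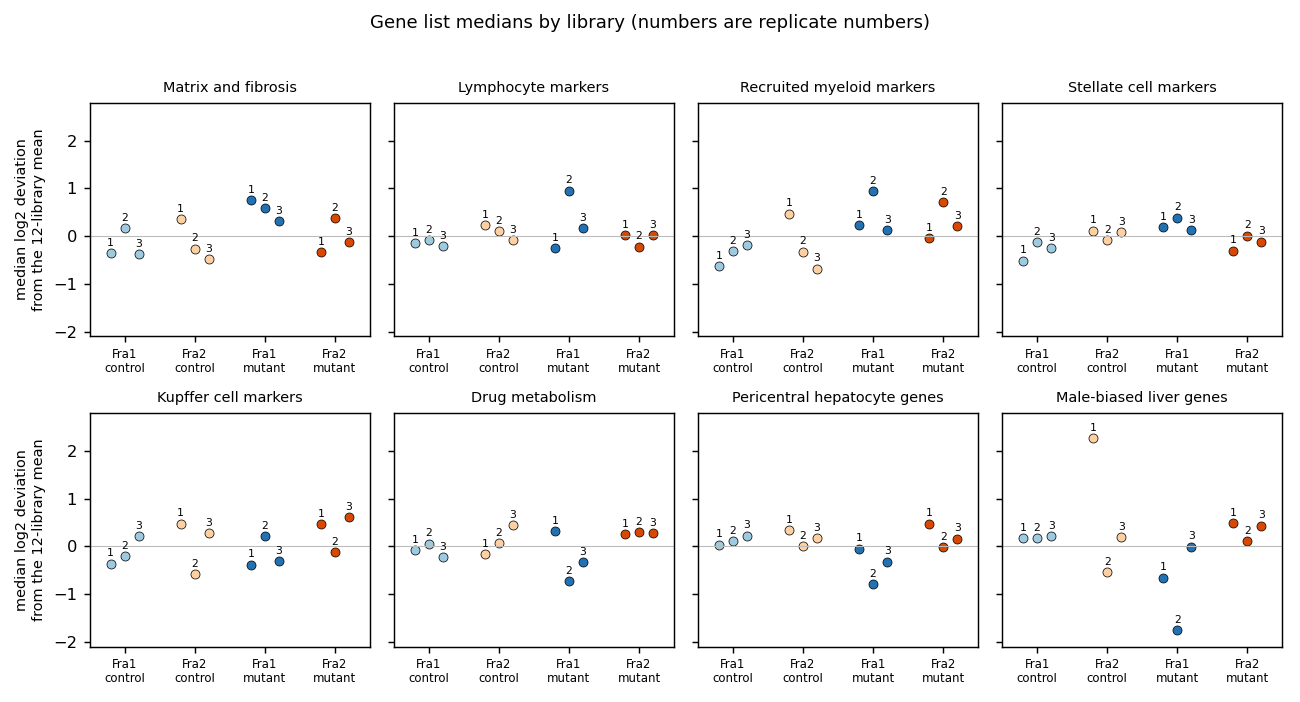
Median log2 deviation of the genes of 8 lists from their mean over 12 libraries, by library, with replicate numbers beside the points. Fra1 mutant 2 is the lowest library for male-biased, pericentral and drug metabolism genes and the highest for lymphocyte and recruited myeloid markers, and for stellate markers all 3 Fra1 mutants lie above all 3 Fra2 mutants.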

How the data were processed

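Liver RNA was enriched for polyadenylated transcripts and made into stranded libraries, per the labels' protocols. The authors deposited whole-number counts per gene, not normalized. The submitters' processing notes name GRCm38, RSEM, DESeq2 1.22.2, bedtools 2.27.1 and STAR 2.6.1a; no source used here says which tool made the counts, with which annotation or strand setting. Totals ran from 16834041 to 20464807 counts in the 12 libraries. Intervals and tests treat PCR copies as molecules.

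Groups and replicate numbers came from the titles. The labels do not say outright that each library is 1 mouse, so p-values measure the spread between these libraries. No replicate pair agreed within sampling noise by chi-square test. With R 4.3.3 and edgeR 4.0.16, the 12 libraries were fitted with 4 group means (filterByExpr by group, TMM factors, robust quasi-likelihood, two-sided glmQLFTest), with calls at an adjusted p under 0.05 (Benjamini-Hochberg, over 14076 genes). Contrasts were Fra2 minus Fra1 in mutants, in controls, their difference, and each mutant group against its controls. The shared fit was chosen because 3 libraries a group are few. SEs come from the difference and its test statistic, and are unreliable where the difference is near 0.

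Named genes were Fosl1 and Fosl2, up to 15 called coding genes per direction by size with no overlap and at least 1 CPM in the higher group, filled to 10 per direction by the smallest p, up to 4 called members per list, 5 per direction of the other contrasts and 3 non-coding (0 were called); other list members were named where their list is described, and some are not reported here. The members and the 37 lists were chosen with earlier results of these data known. Gene positions are from GENCODE M21 on GRCm38, and promoters from RefSeq (GRCm38.p6).

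Alternatives were limma-voom (limma 3.58.1), DESeq2 1.42.0, RLE factors, no scaling, no filter, 1 CPM in 3 libraries, a test against 1.5-fold, only the libraries compared, a replicate block and leaving out each library. List medians without single mutant libraries were an alternative chosen after seeing the data. Simulated counts with known changes served to test the fit.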

Additional observations from a re-analysis of the deposited data

Results flagged for a closer look

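In 5 genes the Fra2 minus Fra1 difference itself differed between mutants and controls by the test of the difference of differences (edgeR, adjusted p under 0.05). On the log2 scale it was -1.98 in Gas7, -4.40 in Smpdl3b, 2.35 in Cyp4a12b, -1.23 in Tpm1 and -1.29 in Dop1b. In Gas7, Smpdl3b and Dop1b the strains stood in opposite order in controls and mutants. In Cyp4a12b and Tpm1 the controls of both strains overlapped and the mutants did not. Adjusted p values in fits that left out a library ran from 0.0102 to 0.125 for Gas7, 0.0128 to 0.125 for Smpdl3b, 0.0294 to 0.125 for Cyp4a12b, 0.0294 to 0.155 for Tpm1 and 0.0102 to 0.179 for Dop1b. With limma-voom the adjusted p was 0.287 for Smpdl3b and 0.0584 for Dop1b, and 3 of the 5 genes were still called. The 9-month treatment label of the Fra2 mutants coincides with their group, and its part in these values cannot be told apart.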

How the results depend on the processing

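Few calls and 3 libraries a group limit these results. The 7 genes called between the mutants became 11 (4 higher, 7 lower) without a scaling factor, 363 (182 and 181) with DESeq2, 37 (15 and 22) with no filter and 12 (4 and 8) with a replicate block, which kept 5 of the 7. They ranged from 4, without Fra2 mutant 3, to 15, without Fra2 control 1, when a library was left out, with 11 without Fra1 mutant 3. Fosl2, Tpm1, Insig2 and Cyp4a12b were called in 12 of 12 such fits, Fosl1 in 10, Cmah and Epb41l1 in 5. A fit of the compared libraries alone kept 5 of the 7, without Insig2 (adjusted p = 0.0771) and Epb41l1 (0.106). Between the controls, 0 became 17 with DESeq2, 3 with no filter and 0 to 1 with a library left out (1 without Fra2 control 3). The 5 calls of the difference of differences became 70 with DESeq2, 9 with no filter, 0 with a 1.5-fold test, 0 with the replicate block, and 0 to 13 with a library left out. Same-numbered mutants did not deviate together (correlations -0.13, -0.06 and 0.07), so the numbers were not taken as pairs. No named gene reversed its direction under these settings, while the list medians of recruited myeloid markers, carboxylesterases, cytokines and glucose metabolism, among others, changed sign without Fra1 mutant 2. Of 583 single-gene values under alternatives, 457 stayed on their side of the threshold, 42 crossed it upward and 84 downward. Depth did not allow statements on genes under a few counts, such as Fosl1 in controls, and the causes of these shifts were not tested.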
